A study of Homo sapiens with 6 samples.

Results

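The genes described here are the human ZNF genes, named ZNF and a number, whose transcripts were measurable in LoVo cells. LoVo is an established line from a human colorectal adenocarcinoma. The genes were selected on the control arrays: a gene was taken if at least 1 of its probes read above 50 intensity units on both of them, and its brightest probe was followed. This gave 167 genes of the 487 ZNF genes on the platform, among 12111 genes tested in all. Of these 167 genes, 4 are transcribed pseudogenes (ZNF252P, ZNF286B, ZNF702P and ZNF876P), and 6 antisense names were left out.

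Gene expression was measured on 6 Illumina bead arrays, 2 for each of 3 lentivirally infected populations of LoVo cells kept in puromycin. The shLGR5-1 and shLGR5-2 cells carry different short hairpin RNAs against LGR5, and the shCTL cells carry the pLKO.1 vector as non-targeting control. LGR5 is a membrane receptor of Wnt-responsive crypt stem cells in the intestine and binds R-spondin growth factors. The labels do not say whether replicates were separate infections or cultures. The p-values here cover only the spread between the 2 samples of a group, possibly a technical one. That spread was pooled over the 3 groups into 1 variance per gene, though the groups differed in it. Across the 167 ZNF genes the SD of the log2 difference between replicates was 0.71 in shLGR5-1, 0.36 in shLGR5-2 and 0.21 in shCTL cells. Spread in shLGR5-1 cells therefore also enters the comparison of shLGR5-2 with shCTL. With 2 arrays per group the precision is limited. The LGR5 probe read -1.1 and 7.0 in shLGR5-1 cells, 12.5 and 19.2 in shLGR5-2 cells, and 44.4 and 49.2 in shCTL cells, where values above 16.5 exceed the noise. A marker was counted as above the noise in a group only if both arrays of the group exceeded it. Of 11 markers of colorectal epithelium, 11 were above the noise in shLGR5-1 cells, 7 in shLGR5-2 cells and 11 in shCTL cells. In shLGR5-2 cells KRT20, VIL1, CDX1 and LGALS4 were not. Endothelial markers were above the noise on both arrays in none of the groups (0 of 4). On shLGR5-1 replicate 1 alone, KDR (24.8) and PECAM1 (17.0) exceeded it. The neural list had 1 of 3 markers above it in each group, TUBB3, with summed levels of 1260 to 1371 in shLGR5-1 cells, 2332 to 2591 in shLGR5-2 cells and 310.8 to 336 in shCTL cells. Fibroblast markers (1 of 6 above the noise in each group) summed to 61.9 to 92.0 in shLGR5-1 cells, 80.8 to 87.1 in shLGR5-2 cells and 27.7 to 70.8 in shCTL cells. Leukocyte markers (1 of 4 in each group) summed to 155.8 to 156.4 in shLGR5-1 cells, 132.0 to 162.8 in shLGR5-2 cells and 56.5 to 71.6 in shCTL cells. The marker above the noise was not the same in each group. It was PDGFRB in shLGR5-1 and shCTL cells and DCN in shLGR5-2 cells among fibroblast markers. Among leukocyte markers it was CD14 in both hairpin lines and LYZ in shCTL cells. The part of these differences in the ZNF values was not tested. In bulk RNA, fewer cells with a transcript and less of it per cell cannot be told apart.

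Zinc finger proteins of this kind carry tandem fingers, each a short loop folded around a zinc ion, and a row of fingers reads a stretch of DNA. They are the largest family of human transcription factors. Many also carry a KRAB domain, which binds the corepressor TRIM28 and through it SETDB1, a histone methyltransferase, and heterochromatin proteins. Such proteins are known for silencing transposable elements, and many of their genes lie in clusters on chromosome 19. A minority of ZNF proteins act elsewhere, for example on ribosomes or the mitotic spindle.

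The control arrays chose the genes. Tests of ZNF genes are therefore read only in the contrast without control levels, shLGR5-1 minus shLGR5-2, called the direct contrast below. The control arrays still enter its variance. The cut can also act on this contrast, because it keeps only genes with signal in shCTL cells. If 1 hairpin line lies nearer to shCTL than the other, the balance of direction can shift. The other genes past the same cut share this selection. Calls of ZNF genes against shCTL come from the same fit and are counted as a description. Differences are in log2(intensity + 16), and the added 16 shrinks those of dim genes. A gene was called at an adjusted p below 0.05 in limma's moderated test, adjusted over all genes tested. In the direct contrast 55 of the 167 ZNF genes were higher in shLGR5-1 cells, 77 were lower and 35 were not called. The called share was 79.0%, against 73.4% of all genes tested and 81.4% of the 8469 other genes past the same control cut, so the number of calls was near the background. The balance of direction differed in description. Among all genes tested 39.8% were higher and 33.6% lower, and among other genes past the cut 43.5% were higher and 37.9% lower. The median difference was -0.68 for the ZNF genes (quartiles -2.12 and 0.93, range -4.42 to 2.68), 0.17 for the other genes past the cut and 0.19 for all genes tested. ZNF genes that were at least 4-fold lower numbered 44 (26.3%, against 18.8% of other genes past the cut), and those at least 4-fold higher numbered 6 (3.59%, against 7.73%). The arrays of the hairpin lines did not overlap for 62 higher and 87 lower ZNF genes, where 47.7% of all genes tested lie apart in the higher and 39.2% in the lower direction (86.9% in either). The lower median depends on the filter: when only genes above the noise on all 6 arrays were kept, 117 ZNF genes remained, 56 higher and 38 lower, with a median of 0.32. That filter removes genes at the noise on any array, so it acts on the levels compared. Neither array exceeded the noise for 20 of the 167 ZNF genes in shLGR5-1 cells and for 2 in shLGR5-2 cells.

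**Figure D1:**
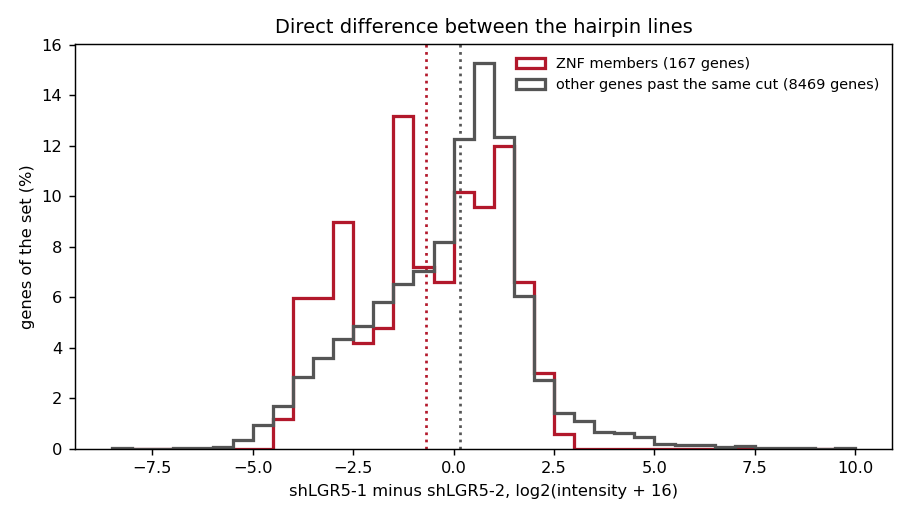
Distribution of the direct difference, shLGR5-1 minus shLGR5-2, in log2(intensity + 16), as the percentage of genes in each set per bin; dotted lines mark medians. The 167 ZNF genes (red) have a median of -0.68 and the 8469 other genes past the same cut (grey) a median of 0.17.

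The ZNF genes furthest below in shLGR5-1 cells were near the noise there and clearly measured in both other groups. ZNF148, which encodes a factor that binds GC-rich promoters and is also called ZBP-89, read 24.4 and -5.8 in shLGR5-1 cells, 517.4 and 535.6 in shLGR5-2 cells, and 367.5 and 391.2 in shCTL cells. Both shLGR5-1 arrays lay far below all others, with 1 of them above the noise threshold and the other below it. The direct difference was -4.42 ± 0.44 (SE, n = 2 against 2, limma adjusted p = 0.000643). ZNF627 read 1.8 and 22.1 in shLGR5-1 cells, 449.4 and 378.4 in shLGR5-2 cells, and 408.3 and 458.6 in shCTL cells, a direct difference of -4.04 ± 0.37 (SE, limma adjusted p = 0.000528). A second ZNF627 probe differed in the same direction, by -3.51.

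The pseudogene transcript ZNF252P was not above the noise on either shLGR5-1 array (11.8 and 1.8), against 313.5 and 305.9 in shLGR5-2 cells and 454.5 and 666.7 in shCTL cells. Its level was at least 18.8-fold lower in shLGR5-1 than in shLGR5-2 cells (limma adjusted p = 0.00027). ZNF594 was likewise dim in shLGR5-1 cells (-11.4 and 0.9), against 224.2 and 152.9 in shLGR5-2 cells and 55.2 and 57.4 in shCTL cells, at least 11.2-fold lower in the direct contrast (limma adjusted p = 0.000122). Both genes separated the hairpin lines without overlap. ZNF280C, ZNF721, ZNF106 and ZNF286B were also lower, with differences of -3.58, -3.58, -3.70 and -3.56. ZNF106, which encodes an RNA-binding protein, and ZNF721 had shLGR5-1 arrays far apart (1.1 and 65.1 for ZNF106, 0.5 and 58.1 for ZNF721), and neither passed when values were floored at 1 with no offset added (limma adjusted p = 0.0653 and 0.0666). ZNF286B and its close copy ZNF286A, which differed by -3.55, cannot be told apart without the probe sequences, which were not used here.

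The ZNF genes furthest above in shLGR5-1 cells mostly had their lowest levels in shLGR5-2 cells, with the control between. ZNF219 read 526.3 and 518.1 in shLGR5-1 cells, 51.2 and 88.8 in shLGR5-2 cells, and 193.2 and 190.2 in shCTL cells. The direct difference was 2.68 ± 0.23 (SE, n = 2 against 2, limma adjusted p = 0.000408). ZNF384, a gene known from fusions in acute leukaemia, read 456.5 and 490.2 in shLGR5-1 cells, 86.7 and 74.6 in shLGR5-2 cells, and 147.9 and 148.9 in shCTL cells, a difference of 2.34 ± 0.12 (SE, limma adjusted p = 0.000117). In both genes the 3 groups were fully separated. ZNF629, ZNF784, ZNF618 and ZNF74 followed the same order of groups, with direct differences of 2.14, 2.11, 2.00 and 1.98.

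ZNF467 and ZNF581 differed from that order, because their shLGR5-1 and shCTL levels were close. ZNF467 read 81.0 and 86.7 in shLGR5-1 cells, 2.2 and 3.3 in shLGR5-2 cells, and 97.6 and 98.4 in shCTL cells. It was at least 5.09-fold higher in shLGR5-1 than in shLGR5-2 cells (limma adjusted p = 8.43e-05). ZNF581 read 3027.0 and 2866.4 in shLGR5-1 cells, 539.1 and 688.5 in shLGR5-2 cells, and 2765.1 and 2656.4 in shCTL cells, a difference of 2.24 ± 0.15 (SE, limma adjusted p = 0.000223).

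**Figure D2:**
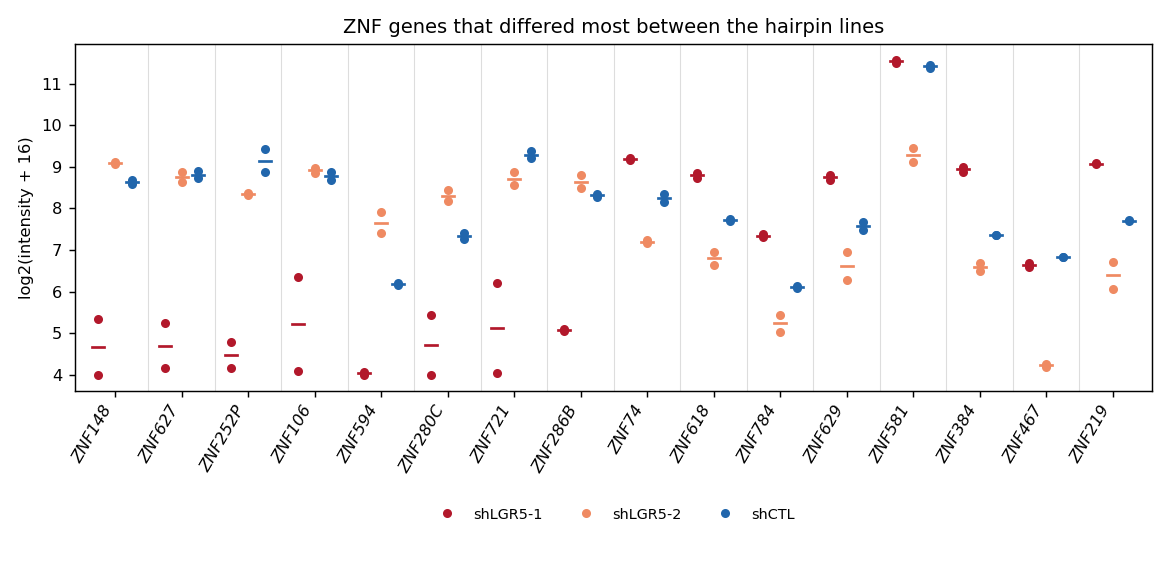
Level of the 16 ZNF genes with the largest direct differences, in log2(intensity + 16); points are single arrays, 2 per group, and short bars are group means. The 8 genes on the left (ZNF148 to ZNF286B) are lowest in shLGR5-1 cells, and the 8 on the right (ZNF74 to ZNF219) are lowest in shLGR5-2 cells.

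Of 45 ZNF genes listed for a known role, 23 were measured past the control cut. In the direct contrast 15 of these were lower in shLGR5-1 cells, 3 were higher and 5 were not called, with a median of -1.35, against -0.68 for all 167 ZNF genes. Among all genes tested 39.8% were higher and 33.6% lower, with a median of 0.19, and among other genes past the cut 43.5% and 37.9%. The list was made with earlier results of these data known, so its balance is a description. ZNF217, an oncogene amplified in breast cancer whose protein works with corepressor complexes, read 45.7 and 30.3 in shLGR5-1 cells, 627.4 and 558.8 in shLGR5-2 cells, and 669.5 and 565.6 in shCTL cells. The direct difference was -3.51 ± 0.19 (SE, n = 2 against 2, limma adjusted p = 0.000126), and the shLGR5-2 and shCTL arrays overlapped. ZNF281, linked to pluripotency and to epithelial-mesenchymal transition, read 2.3 and 33.9 in shLGR5-1 cells, 312.1 and 303.5 in shLGR5-2 cells, and 450.0 and 312.9 in shCTL cells, a difference of -3.42 ± 0.49 (SE, limma adjusted p = 0.0023). ZNF143, an activator of many housekeeping and small nuclear RNA promoters, read 31.5 and 5.9 in shLGR5-1 cells, 312.8 and 272.7 in shLGR5-2 cells, and 211.8 and 211.9 in shCTL cells, a difference of -3.26 ± 0.37 (SE, limma adjusted p = 0.00103).

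Some of the lower genes encode repressors or partners of chromatin enzymes. ZNF91, whose protein silences SVA retrotransposons, read -1.9 and 30.1 in shLGR5-1 cells, 164.8 and 119.9 in shLGR5-2 cells, and 64.2 and 87.8 in shCTL cells, a difference of -2.53 ± 0.52 (SE, limma adjusted p = 0.00834). ZNF644, a partner of the histone methyltransferases G9a and GLP, read 23.4 and 84.6 in shLGR5-1 cells, 251.0 and 214.3 in shLGR5-2 cells, and 463.9 and 521.8 in shCTL cells, a difference of -1.98 ± 0.45 (SE, limma adjusted p = 0.0115). ZNF451, a SUMO ligase, differed by -2.85 and ZNF652, a transcriptional repressor, by -1.12. ZNF318, ZNF326, ZNF131, ZNF83, ZNF330 and ZNF277 differed by -2.32, -2.32, -1.73, -2.14, -0.68 and -1.35. The calls of ZNF326, ZNF644, ZNF318 and ZNF277 were lost when either shLGR5-2 array was left out, and that of ZNF91 when shLGR5-2 replicate 1 was, with limma adjusted p-values between 0.0532 and 0.0825. The remaining shLGR5-2 array is then assumed to vary like the other groups.

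Genes whose products act on ribosomes or mitosis went different ways. ZNF622 and ZNF593, both assembly factors of the large ribosomal subunit, were higher in shLGR5-1 cells. ZNF622 read 3380.7 and 3189.5 in shLGR5-1 cells, 1120.3 and 1010.6 in shLGR5-2 cells, and 2158.3 and 2097.3 in shCTL cells, a difference of 1.61 ± 0.12 (SE, limma adjusted p = 0.000259). ZNF593 read 3376.9 and 3696.2 in shLGR5-1 cells, 1174.6 and 1333.9 in shLGR5-2 cells, and 2485.4 and 2857.0 in shCTL cells, a difference of 1.49 ± 0.14 (SE, limma adjusted p = 0.000559). In both genes the control lay between the hairpin lines. ZNF207, also called BuGZ, a kinetochore and spindle protein that stabilises BUB3, was lower: 892.3 and 897.7 in shLGR5-1 cells, 2283.4 and 2211.7 in shLGR5-2 cells, and 2468.3 and 2519.3 in shCTL cells, a difference of -1.31 ± 0.10 (SE, limma adjusted p = 0.000338). ZNF598, a ubiquitin ligase that marks collided ribosomes, had a difference of 0.24 (limma adjusted p = 0.13). The other genes not called were ZNF274 (-0.23), which recruits SETDB1 to ZNF genes, ZNF410 (0.02), an activator of CHD4, ZNF638 (0.32), which works with the HUSH silencing complex, and ZNF511 (0.23), with limma adjusted p-values between 0.09 and 0.893.

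**Figure D3:**
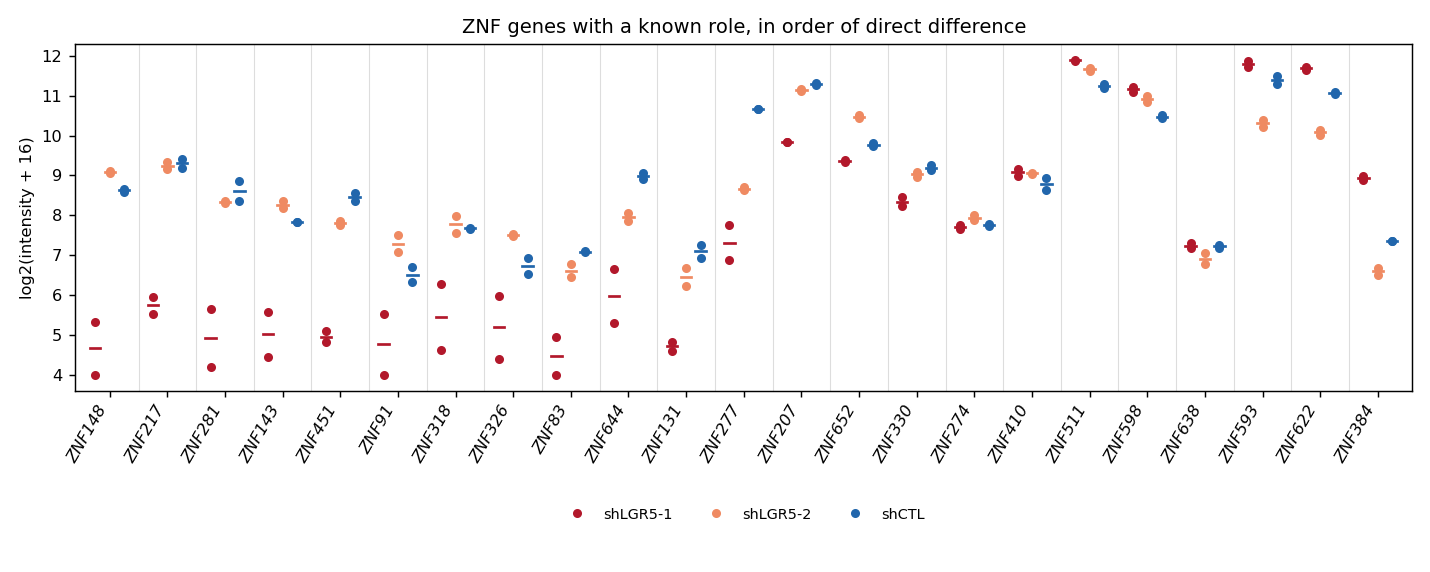
Level of the 23 measured ZNF genes with a listed role, in log2(intensity + 16), ordered by direct difference; points are single arrays, 2 per group, and short bars are group means. The 15 genes on the left, ZNF148 to ZNF330, were called lower in shLGR5-1 than in shLGR5-2 cells, and the 3 on the right, ZNF593, ZNF622 and ZNF384, were called higher.

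Set against shCTL, the values are a description, because these arrays selected the genes. With shLGR5-1, 46 ZNF genes passed the call as higher and 83 as lower (77.2%, against 72.0% of all genes tested, 40.4% higher and 31.6% lower), with a median of -0.48. Of other genes past the cut 81.3% were called, 43.3% higher and 38.1% lower, with a median of 0.18. With shLGR5-2, 32 passed as higher and 39 as lower (42.5%, against 44.2% of all genes tested, 21.6% higher and 22.6% lower), with a median of -0.09. Of other genes past the cut 49.2% were called, 21.9% higher and 27.3% lower, with a median of -0.05. The shLGR5-2 count was 71 with all arrays. With 1 array left out, this count fell or rose depending on the array. A group left with 1 array is assumed to vary like the other groups, and fewer arrays enter the test. The spread of the shLGR5-1 arrays also enters the variance used for this count, and its part was not tested. Neither shLGR5-1 array exceeded the noise for 20 ZNF genes (12%, against 6.9% of other genes past the cut and 11.4% of all genes tested). Neither shLGR5-2 array did for 2, ZNF467 and ZNF614 (1.20%, against 3.6% of other genes past the cut and 9.3% of all genes tested). Lower calls with both hairpins numbered 11 (8.53% of all genes tested) and higher calls with both numbered 13 (12.4%). A further 11 were lower with shLGR5-1 and higher with shLGR5-2 (4.85%), and 17 the reverse (8.13%). Among the 8469 other genes past the cut, these counts were 885, 1116, 469 and 838 in that order. Both comparisons share the shCTL arrays.

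Furthest below shCTL with shLGR5-1 were ZNF252P (at least 33.5-fold lower) and ZNF770, which read 64.2 and 23.4 in shLGR5-1 cells, 393.8 and 377.0 in shLGR5-2 cells, and 1096.8 and 1213.3 in shCTL cells. ZNF721, ZNF627, ZNF148 and ZNF146 followed, at -4.16, -4.11, -3.96 and -3.85. ZNF146 encodes a protein made almost wholly of fingers. Furthest above were ZNF503, ZNF689, ZNF324, ZNF296, ZNF580 and ZNF763, between 2.10 and 1.65. ZNF689 was similar in both hairpin lines, at 495.8 and 478.1 in shLGR5-1 cells, 523.0 and 429.3 in shLGR5-2 cells, and 109.5 and 117.5 in shCTL cells.

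Furthest below shCTL with shLGR5-2 were ZNF22, ZNF614, ZNF512, ZNF467, ZNF581 and ZNF277. ZNF22 read 43.7 and 35.2 in shLGR5-1 cells, 12.3 and 37.8 in shLGR5-2 cells, and 388.2 and 340.0 in shCTL cells. ZNF614 was above the noise only in shCTL cells (103.6 and 120.4). These 2 genes were low in both hairpin lines, and their direct differences were not called (0.50 and 0.20, limma adjusted p = 0.213 and 0.34). ZNF277 read 100.7 and 201.9 in shLGR5-1 cells, 404.4 and 379.5 in shLGR5-2 cells, and 1605.7 and 1604.2 in shCTL cells. Furthest above with shLGR5-2 were ZNF544 (2.06), ZNF689 (1.92), ZNF669 (1.85), ZNF200 (1.54), ZNF594 (1.48) and ZNF394 (1.34). These values are of the brightest probes. In the same comparison a dimmer probe of ZNF394 had the opposite sign (-0.48). Dimmer probes of ZNF669 and ZNF200 kept the sign, at 0.39 and 1.19. ZNF544 read 70.2 and 66.5 in shLGR5-1 cells, 775.8 and 695.3 in shLGR5-2 cells, and 172.9 and 155.1 in shCTL cells, so the hairpin lines lay on opposite sides of the control.

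The 8 brightest ZNF probes in shCTL cells belonged to ZNF674, ZNF876P, ZNF430, ZNF581, ZNF593, ZNF549, ZNF207 and ZNF511; brightness does not rank genes, since probes differ. ZNF674 read 8783.7 and 9398.6 in shLGR5-1 cells, 21708.6 and 18856.0 in shLGR5-2 cells, and 12636.2 and 13967.2 in shCTL cells. ZNF876P, ZNF430 and ZNF549 had the same order of groups, with direct differences of -1.22, -1.09 and -1.45, beside -1.15 for ZNF674. Second probes did not always share the sign of the brightest. In the direct contrast, of 42 other probes of called ZNF genes, 33 had its sign and 9 the opposite one. Dimmer probes of ZNF549, ZNF394 and ZNF14 differed by 0.50, 1.54 and 1.03, where the brightest differed by -1.45, -1.34 and -0.80. Just inside the cut lay ZNF837 (65.4 and 50.8 on the shCTL arrays), ZNF784 (54.4 and 52.0) and ZNF684 (83.7 and 52.1), and just outside ZNF688 (71.9 and 49.6), ZNF579 (87.3 and 49.4) and ZNF362 (49.2 and 53.2).

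Chromosome 19 held 60 of the 167 ZNF genes. Their balance of direction differed in description from that of the other genes past the cut anywhere on that chromosome. In the direct contrast 17 were higher, 30 lower and 13 not called, with a median of -0.92. The 459 other genes past the cut on chromosome 19 had 351 higher and 23 lower, with a median of 0.87. Off chromosome 19, 107 ZNF genes had 38 higher and 47 lower, with a median of -0.33, against 0.08 for other genes past the cut there. On chromosome 16 the 12 ZNF genes (7 higher, 2 lower, median 0.59) lay close to the other genes of that chromosome (median 0.60). On chromosomes 7, 1 and 17 the ZNF medians were -0.51, -1.36 and -1.21, against 0.21, 0.22 and 0.57 for other genes past the cut there. On chromosomes 10 and 8 they were -0.49 and 0.40, against -0.84 and -0.73. ZNF genes of chromosome 19 had a median length from start to end of 22.5 kb, and the other genes past the cut there 12.9 kb. Runs of neighbours with the same sign were noticed after the values were seen and were not tested. On chromosome 19, ZNF14, ZNF682, ZNF486, ZNF430, ZNF738 and ZNF91 were consecutive among the measured ZNF genes and all lower at their brightest probes. The differences were -0.80, -0.90, -0.95, -1.09, -0.73 and -2.53. A dimmer probe of ZNF14 went the other way (1.03), and a dimmer probe of ZNF430 had the same sign (-0.45). Further along, ZNF524, ZNF784, ZNF581, ZNF580, ZNF787 and ZNF444 were all higher, with differences of 1.44, 2.11, 2.24, 1.03, 0.83 and 0.74. On chromosome 7, ZNF282, ZNF212, ZNF777, ZNF746, ZNF467 and ZNF775 were all higher, with differences of 1.28, 1.64, 1.84, 1.08, 2.41 and 1.53. Over the chromosomes with 2 or more measured ZNF genes, 96 of 146 adjacent pairs had the same sign. They numbered 40 of 59 on chromosome 19, 13 of 16 on chromosome 7 and 8 of 11 on chromosome 16, but 4 of 8 on chromosome 1, 4 of 7 each on chromosomes 10 and 17, 2 of 7 on chromosome 8 and 1 of 3 on chromosome 2. Such counts rise in any gene order where 1 sign prevails, as on chromosome 19. No expected count was worked out, and neighbouring genes of other kinds were not compared.

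**Figure D4:**
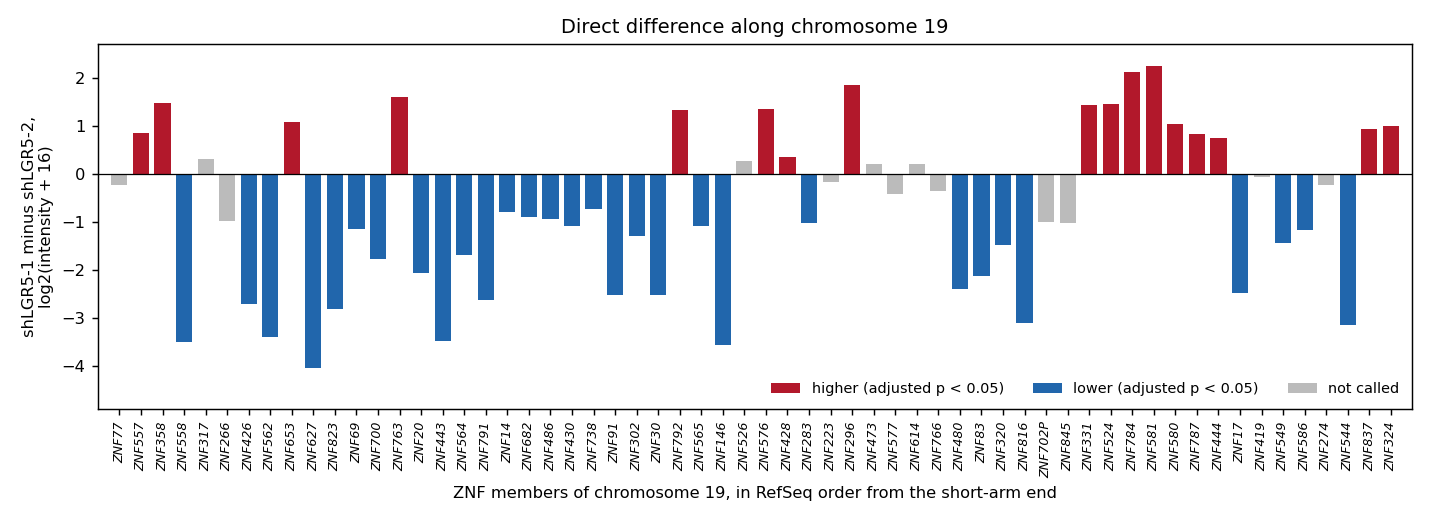
Direct difference, shLGR5-1 minus shLGR5-2, in log2(intensity + 16), for the 60 ZNF genes of chromosome 19 in their order along it; red bars were called higher, blue bars lower and grey bars not called. The run from ZNF14 to ZNF91 lies below 0 and the run from ZNF524 to ZNF444 above it, each gene at its brightest probe.

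Longer ZNF genes tended to be lower in shLGR5-1 cells, as other long genes were. Genomic span, the distance from the start to the end of the gene in RefSeq, divided the ZNF genes into 4 ranges at 13.1, 23.1 and 44.6 kb. Median direct differences were 0.36, -0.41, -0.99 and -1.19 from the shortest range to the longest. Other genes past the cut had 0.75, 0.43, 0.01 and -0.95 in the same ranges. Splitting the ZNF genes by rank moved the second median to -0.60, because it depends on single genes at the edges. Across genes, Spearman's rho between span and direct difference was -0.27 over the 167 ZNF genes and -0.36 over 8466 other genes (Pearson's r -0.083 and -0.197). These genes share the same arrays and are not independent replicates. For shLGR5-2 minus shCTL, rho was 0.028 and 0.007.

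**Figure D5:**
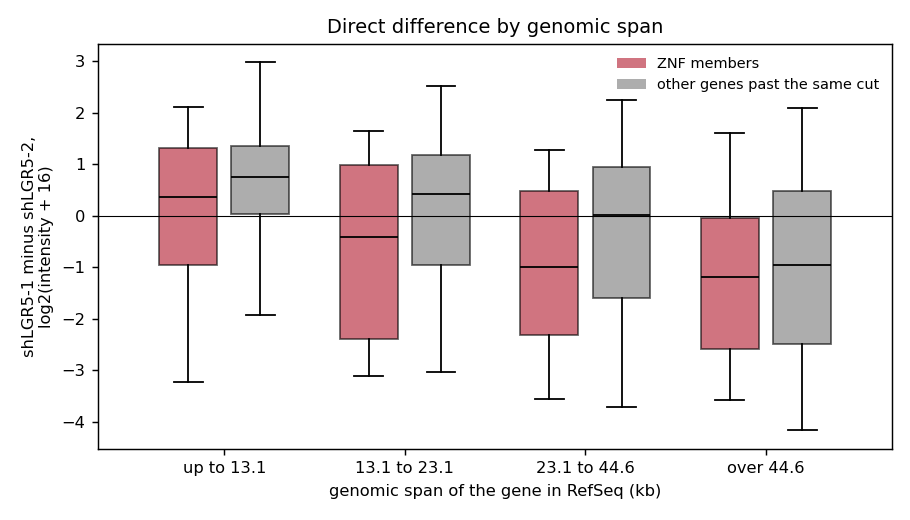
Direct difference, shLGR5-1 minus shLGR5-2, in log2(intensity + 16), by genomic span in kb; boxes show quartiles with the median as a line, and whiskers the 5th to 95th percentile of genes. ZNF genes (red) have medians of 0.36, -0.41, -0.99 and -1.19, and other genes past the same cut (grey) 0.75, 0.43, 0.01 and -0.95.

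Promoter sequences, from RefSeq on GRCh38.p14, were matched for 141 of the 167 ZNF genes, and the 250 bases before each gene's start were searched on both strands. The strings searched, 15 in all, were picked after the direct contrast had been seen and received no test. The core of ETS factor sites, CCGGAAG, stood in 28.4% of ZNF promoters (40 of 141), against 17.0% of other genes past the cut and 8.82% of all promoters. Both directions occurred with and without it: 11 higher and 19 lower with it, 36 higher and 47 lower without it. The median direct differences were -0.98 and -0.51. The promoters of ZNF384 (chr12:6689376-6689625, minus strand), ZNF622 (chr5:16465801-16466050, minus strand), ZNF143 (chr11:9460762-9461011, plus strand) and ZNF594 (chr17:5191869-5192118, minus strand) are printed with this string in capitals, because ZNF384 and ZNF622 were higher and ZNF143 and ZNF594 lower in shLGR5-1 cells. They run in the direction of the gene.
ZNF384: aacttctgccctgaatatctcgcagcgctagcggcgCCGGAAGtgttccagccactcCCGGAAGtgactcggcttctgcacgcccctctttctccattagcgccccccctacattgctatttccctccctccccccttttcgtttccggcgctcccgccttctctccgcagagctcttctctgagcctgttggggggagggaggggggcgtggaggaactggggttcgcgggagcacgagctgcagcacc
ZNF622: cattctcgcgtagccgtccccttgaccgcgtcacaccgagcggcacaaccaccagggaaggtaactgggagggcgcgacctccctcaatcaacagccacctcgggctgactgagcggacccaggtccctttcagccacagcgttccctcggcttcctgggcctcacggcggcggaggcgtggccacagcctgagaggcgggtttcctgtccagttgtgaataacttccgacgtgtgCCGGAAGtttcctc
ZNF143: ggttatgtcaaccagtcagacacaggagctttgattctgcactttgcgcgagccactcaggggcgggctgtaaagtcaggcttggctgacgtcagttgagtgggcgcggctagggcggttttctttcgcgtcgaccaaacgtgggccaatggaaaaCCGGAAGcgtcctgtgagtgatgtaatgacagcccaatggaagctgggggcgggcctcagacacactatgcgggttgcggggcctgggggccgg
ZNF594: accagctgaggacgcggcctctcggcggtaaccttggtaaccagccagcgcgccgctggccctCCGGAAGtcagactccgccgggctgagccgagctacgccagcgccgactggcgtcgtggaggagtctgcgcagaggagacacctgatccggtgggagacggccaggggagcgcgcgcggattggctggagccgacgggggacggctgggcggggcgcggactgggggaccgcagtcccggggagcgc

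The TATA string TATAAA was found in none of the 141 ZNF promoters, against 5.29% of other genes past the cut and 11.1% of all promoters. The CCAAT string CCAATC stood in 27.7% of ZNF promoters, against 19.7% of other genes past the cut and 14.6% of all promoters. ZNF genes with CCAATC had 6 higher and 24 lower, and those without it 41 higher and 42 lower, with medians of -1.16 and -0.27. The gap in medians was not peculiar to CCAATC. ZNF genes with the GC box GGGCGGG had 21 higher and 35 lower, and those without it 26 higher and 31 lower, with medians of -1.02 and -0.27. For CACGTG, found in 10 ZNF promoters, the medians were 0.25 with it and -0.72 without it. The GC box stood in 48.2% of ZNF promoters, against 53.8% of other genes past the cut and 31.4% of all promoters. The ZNF143 site string ACTACAA and a longer form of the ZNF143 site that contains it stood in 6.38% and 2.84%, against 3.73% and 0.557% of other genes past the cut. The remaining strings, each with its share of ZNF promoters and then of other genes past the cut, were TGACGTCA (4.96% and 3.29%), GCATGCGC (7.09% and 5.16%), a longer form of this NRF1 site that contains it (2.84% and 2.07%), and ACTTCCGG, which overlaps the ETS core (12.8% and 7.86%). AAGATGGC stood in 2.13% and 1.90%, GGGGCGGGG, which contains the GC box, in 24.8% and 28.0%, and TTTCCCGC in 1.42% and 2.37%. CACGTG stood in 7.09% and 9.66%, and CTTTGAT in 0.709% and 1.43%. Their shares of all promoters were 1.77%, 2.81%, 1.13%, 3.64%, 1.37%, 15.4%, 1.42%, 6.49% and 2.28% in that order, and 2.64% and 0.249% for the ZNF143 site strings. Median GC content was 62.4% in ZNF promoters and 65.2% in other genes past the cut.

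A list of 40 corepressor and chromatin genes, wider than the partners of KRAB proteins, was compared, and 34 of these genes were tested. Their calls against shCTL do not rest on the rule that chose the ZNF genes. With shLGR5-1, 18 rose and 6 fell against shCTL (median 0.56, against 0.28 for all genes tested, of which 40.4% were higher and 31.6% lower). With shLGR5-2, 14 rose and 2 fell (median 0.43, against 0.00 for all genes tested, of which 21.6% were higher and 22.6% lower). In the direct contrast 11 were higher and 12 lower (median -0.17, against 0.19 for all genes tested, of which 39.8% were higher and 33.6% lower). TRIM28, the scaffold that KRAB domains bind, read 2459.7 and 2167.1 in shLGR5-1 cells, 986.7 and 1345.7 in shLGR5-2 cells, and 614.0 and 647.0 in shCTL cells. It rose with each hairpin, by 1.85 with shLGR5-1 and 0.85 with shLGR5-2 (limma adjusted p = 0.000773 and 0.0177). SETDB1 differed by 1.04 between the hairpin lines (limma adjusted p = 0.00499). HDAC2, a histone deacetylase, read 491.6 and 753.2 in shLGR5-1 cells, 5588.7 and 5163.2 in shLGR5-2 cells, and 4240.7 and 4011.0 in shCTL cells, a direct difference of -3.11 ± 0.22 (SE, limma adjusted p = 0.000246). RBBP7, a histone-binding partner of these deacetylases, read 241.8 and 201.5 in shLGR5-1 cells, 1961.4 and 1521.3 in shLGR5-2 cells, and 52.5 and 29.6 in shCTL cells, so it was above the control in both lines. DNMT3B, a DNA methyltransferase, and the heterochromatin protein gene CBX3 differed by 2.43 and -1.88.

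Other finger families past the same cut had medians nearer 0 in the direct contrast, in sets of few genes. ZBTB genes numbered 24 (10 higher, 10 lower, median -0.00), KLF and SP genes 12 (5 and 5, median 0.23), ZSCAN and ZKSCAN genes 9 (3 and 3, median 0.53) and ZFP genes 7 (2 and 3, median 0.02). A tail of strongly lower genes was not peculiar to the ZNF genes. Genes at least 4-fold lower numbered 5 of 24 ZBTB, 3 of 12 KLF and SP and 3 of 7 ZFP genes. They numbered 0 of 9 ZSCAN and ZKSCAN genes, beside 44 of 167 ZNF genes. Quartiles were -1.87 and 0.90 for ZBTB genes, beside -2.12 and 0.93 for ZNF genes. No test of the difference between families was made.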

How the data were processed

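RNA from 6 LoVo samples, 2 per group, was measured on Illumina bead arrays. The deposited table holds 1 linear intensity per probe and array, which the authors had background-subtracted and quantile-normalized, as the values show: 30.5% lie below 0, and at any rank the arrays differ by at most 0.7. GenomeStudio is named in the submitters' processing notes. No sample label matches the names of a further 12 deposited columns, which were left out, so the planned neqc correction of raw values could not be run. Between 20641 and 20705 of 47323 probes per array exceeded the noise threshold.

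Values were floored at 0, 16 was added and log2 taken. The noise SD was the root mean square of values below 0 (10.0), and the threshold, 1.645 SD, was 16.5. A gene was tested if its probe exceeded it on both arrays of at least 1 group, with the probe of highest mean over 6 arrays standing for the gene. All 6 arrays entered 1 fit by group, made with lmFit and eBayes of limma 3.58.1 (R 4.3.3), with two-sided p-values adjusted by Benjamini and Hochberg over 12111 genes. The fit was tested on simulated data. A gene with neither array of a group above the threshold has only a bound there, given as "at least". Replicate numbers were not treated as pairs in this fit. Deviations of same-numbered samples correlated at 0.0014 to 0.0161, which gives no sign of pairing. With 1 difference per group, these values cannot show whether same-numbered samples were handled together.

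The ZNF genes, the lists and the rule for named genes were chosen with earlier results of these data known. Named are the 8 brightest in shCTL, the 8 furthest each way in the direct contrast, the 6 furthest each way from shCTL per hairpin, 3 on each side of the cut of 50, the genes with listed roles, and up to 6 corepressors. The neighbouring genes, ZNF286A, ZNF14, the 6 corepressors among those passing, and the printed promoters, were chosen after values were seen. So were the promoter strings, first tried on a window that also held bases after the gene's start; all 15 tried are reported. Finger counts and KRAB domains were planned and not analysed here, for want of protein sequences. Alternatives were another offset, floor, filter, probe choice, centring, variance trend, replicate block, groups in the fit, control cut, and each array left out. Probes were named through the platform annotation, with symbols from RefSeq.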

Additional observations from a re-analysis of the deposited data

Results flagged for a closer look

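The hairpins target the same gene, and 132 of the 167 ZNF genes passed the test of the difference between the hairpin lines, beside 73.4% of all genes tested. Among the named ZNF genes, those higher in shLGR5-1 than in shLGR5-2 cells were, with the log2 difference in brackets, ZNF219 (2.68), ZNF467 (2.41), ZNF384 (2.34), ZNF581 (2.24), ZNF629 (2.14), ZNF784 (2.11), ZNF618 (2.00), ZNF74 (1.98), ZNF296 (1.85), ZNF622 (1.61), ZNF763 (1.59), ZNF593 (1.49), ZNF580 (1.03), ZNF324 (0.99), ZNF512 (0.95) and ZNF503 (0.82). Those lower by 3 or more were ZNF148 (-4.42), ZNF627 (-4.04), ZNF252P (-3.87), ZNF106 (-3.70), ZNF594 (-3.61), ZNF280C (-3.58), ZNF721 (-3.58), ZNF286B (-3.56), ZNF146 (-3.56), ZNF217 (-3.51), ZNF281 (-3.42), ZNF143 (-3.26), ZNF200 (-3.22) and ZNF544 (-3.15). The others that were lower were ZNF451 (-2.85), ZNF770 (-2.84), ZNF669 (-2.67), ZNF91 (-2.53), ZNF318 (-2.32), ZNF326 (-2.32), ZNF83 (-2.14), ZNF644 (-1.98), ZNF131 (-1.73), ZNF549 (-1.45), ZNF277 (-1.35), ZNF394 (-1.34), ZNF207 (-1.31), ZNF876P (-1.22), ZNF674 (-1.15), ZNF652 (-1.12), ZNF430 (-1.09) and ZNF330 (-0.68). Within shLGR5-1 the replicate arrays were over 2-fold apart for 28 of the 167 ZNF genes, against 4 within shLGR5-2 and 0 within shCTL.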

How the results depend on the processing

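The count of 132 ZNF genes called in the direct contrast stayed between 118 and 136 over the settings that kept the 167 genes, and between 118 and 131 with 1 array left out. It was 94 of 117 genes with the strict filter, 167 of 229 genes with a control cut of 25 and 96 of 119 with a cut of 100. The strict filter, above the noise on all arrays, kept only 117 genes. The direct median was then 0.32, and the shLGR5-1 calls against shCTL numbered 85 (50 higher, 35 lower, median 0.14). Because it removes genes at the noise on any array, the filter acts on the levels compared. No median of other genes under it is given here. Leaving out 1 array leaves its group with 1 sample, which is then assumed to vary like the other groups; it gave 100 to 126 calls for shLGR5-1 and 38 to 88 for shLGR5-2 against shCTL. With the replicate block, the counts were 129 in the direct contrast, 126 for shLGR5-1 and 68 for shLGR5-2 against shCTL. Of 818 values of named ZNF genes under alternatives, 800 kept direction and side of the threshold, 18 kept direction and lost the call, and 0 reversed. The 18 were 6 with a floor of 1 (ZNF106, ZNF721, ZNF326, ZNF91 and ZNF318), 1 with no filter, 1 with the strict filter, 1 without shCTL replicate 1, and 5 and 4 without shLGR5-2 replicates 1 and 2. Signal limits the lowest values: for 20 ZNF genes neither shLGR5-1 array exceeded the noise.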
